A study of Mus musculus with 4 samples.

Results

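Solute carriers are membrane proteins that move amino acids, sugars, ions, metals, nucleotides and metabolites across the cell surface and the membranes of organelles, most of them by coupling the substrate to an ion gradient or by exchanging it for another substrate. They are named by family number, the Slc number, and each family handles a related set of substrates. On the array, 181 probe sets carried a single gene symbol beginning with Slc and a family number, out of 12422 probe sets tested. They measured 148 genes of 40 families. The glucose transporter Slc2a4, the fatty acid transporter Slc27a1 and the carnitine-acylcarnitine carrier Slc25a20 were left out by the selection rule, and 3 of the genes included, Slc9a3r1, Slc9a3r2 and Slc4a1ap, encode proteins that bind carriers and do not transport themselves.

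RNA came from gastrocnemius and soleus muscle of male mice aged 6.5 months on a mixed C57BL/6 and 129 background, sampled at basal conditions. The 4 Crhr2-/- mice (KO) lacked corticotropin-releasing factor receptor 2, a receptor that couples through stimulatory G protein to cyclic AMP, and the 4 Crhr2+/+ littermates (WT) were the controls. RNA was pooled from 2 mice of a genotype, so each genotype had 2 arrays, here called WT 1, WT 2, KO 1 and KO 2. The labels describe neither the construct of the deleted allele nor a promoter or cell type that would limit the loss to muscle.

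Skeletal muscle depends on several of these families. Mitochondrial carriers of the Slc25 family bring ADP, phosphate and metabolites to the matrix, glutamine and neutral amino acid carriers of the Slc1, Slc7 and Slc38 families supply protein synthesis, and Slc16 carriers move lactate. Creatine and taurine enter fibres through Slc6 carriers, and the sodium-calcium exchangers of the Slc8 family remove calcium from the cytosol.

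Crhr2 itself read 154 and 192 on the WT arrays and 100.4 and 75.1 on the KO arrays, a log2 fold change of -0.88 ± 0.25 (SE), and a second, dim probe set differed by -0.03. All 12 muscle fibre markers were measured, and 11 of them read above the median probe set. Markers of other tissues differed between arrays. All 10 measured exocrine pancreas markers read highest on KO 1, where they summed to 12415, against 3478 on KO 2 and 1545 and 1458 on the WT arrays. Of the 10 measured liver markers, 8 read highest on WT 2, where they summed to 1688, against 446 on WT 1 and 210.1 and 292 on the KO arrays. The kidney, adipocyte, macrophage, endothelium and nerve lists had median log2 fold changes between -0.22 and 0.09, and the red blood cell list 0.36. Of the 6 measured adipocyte markers, 5 read highest on WT 1. The 6 summed to 4263 there, against 2832 on WT 2 and 3431 and 3021 on the KO arrays. Of the 6 measured kidney markers, 3 are themselves solute carrier members. The part of all these markers in the results below was not tested.

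None of the 181 solute carrier probe sets passed a Benjamini-Hochberg adjusted p of 0.05 in limma, as was the case for all 12422 probe sets (0.0%); the smallest adjusted p was 0.803. At an unadjusted p under 0.05 there were 8, of which 2 were higher and 6 lower in KO, or 4.42% of the members against 5.43% of all probe sets (2.57% higher and 2.86% lower). That count was 4 without KO 2 and 5 without KO 1. The smallest two-sided p that an exact permutation test of 2 against 2 arrays allows is 0.333, so single probe sets were not tested that way. Values are intensities on a linear scale, log2 fold changes compare KO with WT on log2(intensity + 14), and errors are SE with 2 arrays a genotype. Fewer cells of a type and less RNA per cell cannot be told apart in these whole-muscle samples.

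The 2 genotypes did not overlap for 64 of the 181 probe sets, 29 higher and 35 lower in KO. That share of 35.4% lay near the 34.6% of all probe sets, of which 17.0% were higher and 17.6% lower. The median log2 fold change of the members was -0.01, with the middle of the distribution between -0.19 and 0.15, and over all probe sets the median was 0.00013. A higher mean in KO was found for 85 members (47.0%; 50.0% of all probe sets). Each family and class below is therefore described by its counts and by the values of its members, and nothing in them passed the adjusted threshold.

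**Figure D1:**
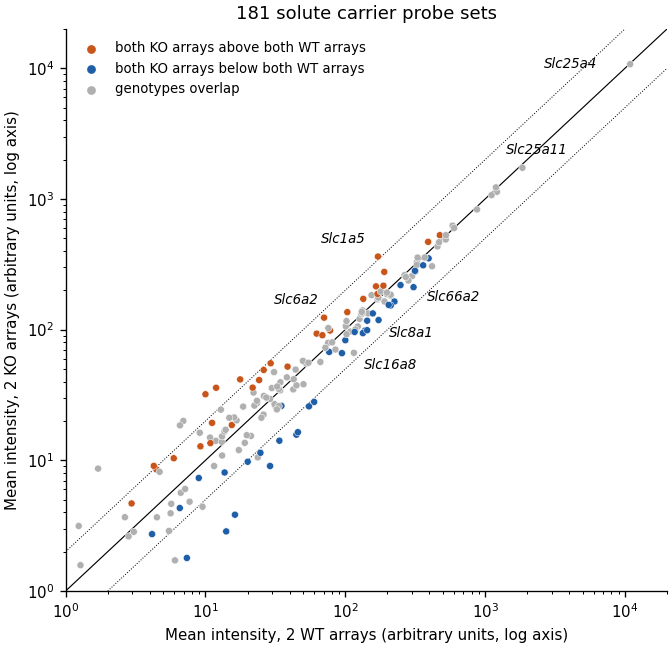
Mean intensity of the 181 solute carrier probe sets in WT (horizontal axis) and KO (vertical axis), both on log axes, each point the mean of 2 arrays. Orange points were higher and blue points lower in KO without overlap, and grey points overlapped. The solid line is equality and the dotted lines a 2-fold difference; the brighter points lie close to equality up to Slc25a4 at the top right, the dimmest scatter more widely, and Slc1a5 is the bright probe set above the upper 2-fold line.

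Brightness limits what can be seen. A probe set was called bright when its mean log2 value lay above that of the median probe set of the array, which was so for 83 members (45.9%; 50.0% of all probe sets), and the other 98 are called dim. For the 83 bright members the median SE was 0.22, and the 95% interval of the fold change lay within a 2-fold change either way for 72 of them. For the dim members the median SE was 0.35. Among the bright members 32 did not overlap, 13 higher and 19 lower (38.6%; 35.0% of all bright probe sets, 16.0% higher and 19.0% lower). Detection calls were not used here, so a dim value is not read as presence or absence of a transcript, and intensities are compared between arrays and not between genes.

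Most bright members lay close together. On the log2(intensity + 14) scale, 6 of these 83 differed by 1.5-fold or more between the WT pools and 2 between the KO pools. Between the genotypes 4 differed by 1.5-fold or more, 3 of them without overlap. A pool gap compares single arrays and a genotype difference compares means of 2, so these counts are not like for like. They were not made over all bright probe sets. The log2 difference between genotypes was larger than both gaps between pools for 21 of the 83 bright members and for 42 of all 181. The same held for 1420 of the 6211 bright probe sets of the array and for 2736 of all 12422.

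**Figure D2:**
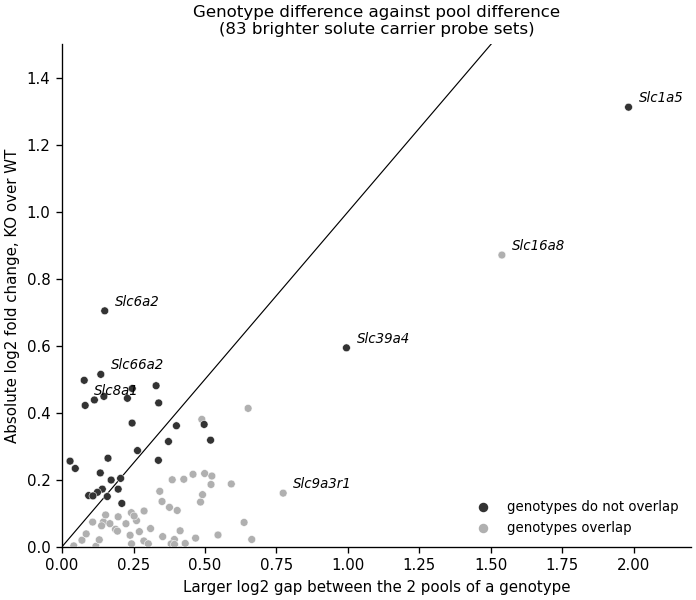
Size of the log2 difference between genotypes (vertical axis) against the larger of the gaps between the pools of one genotype (horizontal axis) for the 83 bright solute carrier probe sets, both in log2 units. Dark points had genotypes that do not overlap and grey points overlapping ones. The solid line marks equal size. Above it lie 21 probe sets, Slc66a2, Slc6a2 and Slc8a1 among them, where 1420 of all 6211 bright probe sets would. Slc1a5 lies far to the right because its WT pools differed most.

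Mitochondrial carriers were measured by 23 probe sets of 19 genes, 17 of them bright. KO was lower on average for 16 and higher for 7, with a median log2 fold change of -0.09. Of the 23, 7 did not overlap, 4 lower and 3 higher, beside 34.6% of all probe sets (17.6% lower and 17.0% higher). The brightest, Slc25a4, encodes the ADP/ATP translocase of heart and skeletal muscle and read 10939 and 10860 in WT against 10498 and 11017 in KO. The genotypes overlapped, the log2 fold change was -0.02 ± 0.11, and its 95% interval from -0.29 to 0.25 excludes a change of 1.5-fold or more in either direction. Slc25a11, the oxoglutarate carrier of the malate-aspartate shuttle, read 1976 and 1723 in WT against 1735 and 1732 in KO, within the range of the WT pools. The 3 probe sets of Slc25a5, the ADP/ATP translocase of dividing cells, had fold changes of -0.03 ± 0.17, -0.20 ± 0.24 and, in a dim probe set, -0.33 ± 0.27.

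Separation between genotypes was found among carriers of other metabolites. Slc25a10, the dicarboxylate carrier, read 130.0 and 157 in WT against 102 and 95.7 in KO, a log2 fold change of -0.47 ± 0.23 (unadjusted p = 0.0821, adjusted p = 0.908, limma). Slc25a1, the citrate carrier, read 316 and 315 in WT against 293 and 265 in KO (-0.17 ± 0.14), and its second bright probe set gave -0.13 ± 0.29 with overlap. In the other direction, Slc25a15, the mitochondrial ornithine carrier, read 139.7 and 129 in WT against 196 and 148 in KO, and both KO pools lay above both WT pools (0.31 ± 0.22). Slc25a3, the phosphate carrier that serves ATP synthesis, was covered only by a dim probe set, at 21.7 and 45.2 in WT against 17.8 and 34.1 in KO, so its level in muscle is not resolved here.

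Because the missing receptor signals through cyclic AMP, the promoters were searched for the cyclic AMP response element TGACGTCA on both strands. RefSeq start sites (GRCm38.p6), each window running from 250 bases before to 50 bases after the start, were found for 122 of the 148 genes as 171 windows. The full element occurred in 2 of them (1.17%; 1.79% of all 32851 windows), both of mitochondrial carrier genes. The windows are shown 5′ to 3′ along the gene's strand with the element in capitals, Slc25a25 at chr2:32424017-32424316 and Slc25a36 at chr9:97110992-97111291, both on the minus strand.
Slc25a25: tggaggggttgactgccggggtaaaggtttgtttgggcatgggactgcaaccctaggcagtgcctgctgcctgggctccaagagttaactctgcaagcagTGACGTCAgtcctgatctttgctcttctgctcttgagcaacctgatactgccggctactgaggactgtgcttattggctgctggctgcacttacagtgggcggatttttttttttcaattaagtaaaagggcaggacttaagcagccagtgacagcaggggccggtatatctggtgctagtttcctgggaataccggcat
Slc25a36: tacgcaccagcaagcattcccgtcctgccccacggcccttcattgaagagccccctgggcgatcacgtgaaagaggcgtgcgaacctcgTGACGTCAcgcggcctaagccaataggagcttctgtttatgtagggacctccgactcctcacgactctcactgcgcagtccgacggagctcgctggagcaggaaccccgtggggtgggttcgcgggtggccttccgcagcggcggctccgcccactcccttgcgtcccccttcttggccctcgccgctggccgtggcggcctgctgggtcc

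Neither gene separated by genotype. Slc25a25, a calcium-regulated carrier that exchanges ATP-magnesium for phosphate, read 477 and 568 in WT against 534 and 446 in KO (-0.09 ± 0.15). Slc25a36, a carrier of pyrimidine nucleotides, read 352 and 306 in WT against 393 and 319.6 in KO (0.11 ± 0.16). The half-site TGACG, which the full element contains, occurred in 43 member windows (25.1%; 20.8% of all), the GC box GGGCGG in 105 (61.4%; 35.7%) and the TATA box TATAAA in 13 (7.6%; 13.6%), each counted on both strands. A match describes the letters in the window and no binding was measured.

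Amino acid carriers were measured by 27 probe sets of 21 genes, 8 of them bright, with 15 higher and 12 lower in KO on average and a median of 0.04. Without overlap were 5 higher and 3 lower, beside 17.0% and 17.6% of all probe sets. Slc1a5, which takes up glutamine in exchange for other neutral amino acids, read 282 and 60.8 in WT against 436 and 289 in KO. It was the only member that met the size rule of a 2-fold difference without overlap in a bright probe set (0.552% of members; 0.443% of all, 0.282% higher), at a log2 fold change of 1.31 ± 0.61 with a 95% interval from -0.16 to 2.78. KO 2 lay barely above WT 1, and the low WT 2 array set most of the difference. The fold change was 0.32 without WT 2, where Slc16a8 and Slc39a4 met the size rule in its place, and 2.30 without WT 1; without KO 2, Slc1a5 and Slc16a8 met it. Slc1a5 gave 1.03 without KO 1, and the genotypes overlapped once each array was divided by its median. Its highest array, KO 1, was also the array with the highest pancreas markers, and its lowest, WT 2, the one with the highest liver markers; their part was not tested.

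Slc3a2, the heavy chain that carries Slc7 light chains to the cell surface, showed a smaller difference with close pools. It read 395 and 387 in WT against 474 and 466 in KO, a log2 fold change of 0.26 ± 0.12 (unadjusted p = 0.0719, adjusted p = 0.908, limma). Its light chain Slc7a5, the large neutral amino acid exchanger, read 156 and 152 in WT against 153 and 215 in KO, so only KO 2 stood above WT. The glutamine carrier Slc38a2 read 395 and 344 in WT against 351 and 363 in KO in its bright probe set (-0.05 ± 0.14), and its 3 dim probe sets all overlapped. Slc38a4, a carrier of neutral and cationic amino acids and the brightest probe set of this class, read 848 and 904 in WT against 863 and 800.4 in KO (-0.07 ± 0.11).

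By family number, the 6 probe sets of Slc1, the glutamate and neutral amino acid carriers, were all higher in KO on average, with a median of 0.51. They measured 5 genes, and 3 of the 6 probe sets did not overlap, beside 34.6% of all probe sets. Of these 6, Slc1a5 alone was bright. Slc1a2, the glial glutamate carrier, passed an unadjusted p of 0.05 in a dim probe set, at 12.8 and 11.1 in WT against 27.4 and 44.4 in KO (0.93 ± 0.34, unadjusted p = 0.0324, adjusted p = 0.846, limma). Of the 8 Slc38 probe sets of 4 genes, 6 were lower, with 1 lower without overlap. Slc38a2 alone gave 4 of these 8, of which 1 was bright. Of the 11 Slc35 probe sets of 10 genes, 7 were lower, with 2 each way without overlap. The Slc1, Slc25, Slc30, Slc35 and Slc38 families are singled out here from 40 after their values were seen.

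**Figure D3:**
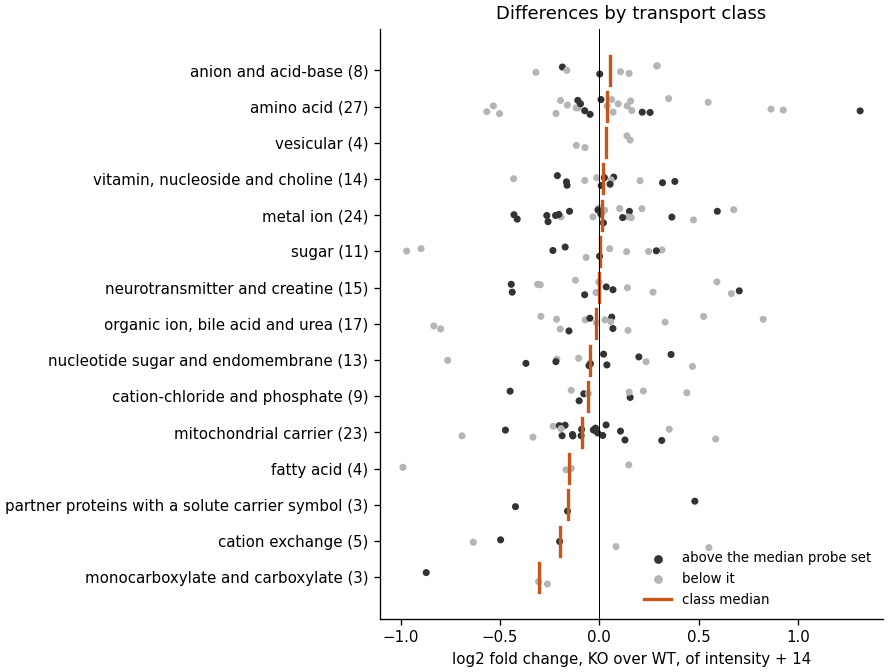
Log2 fold change (KO against WT, log2(intensity + 14)) of each solute carrier probe set, one row per transport class with 3 or more probe sets. Dark points are bright and grey points dim probe sets and the orange bar is the class median; the medians lie between -0.31 for the 3 monocarboxylate carriers and 0.05 for the anion carriers, and every class with more than 3 probe sets spans 0.

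Sugar carriers gave 11 probe sets of 9 genes, of which 6 were higher and 5 lower on average, with a median of 0.00108. Without overlap 1 was higher and 4 lower, beside 17.0% and 17.6% of all probe sets. The 1 that was higher without overlap was Slc5a6, a multivitamin transporter that shares the family number of the sodium-glucose carriers, at 77.9 and 77.7 in WT against 88.2 and 108.7 in KO (0.29 ± 0.27). Slc2a1, the glucose transporter of basal uptake, was dim and overlapped, at 14.2 and 29.9 in WT against 50.2 and 15.9 in KO. Slc2a3, a high-affinity glucose transporter, had a pair of dim probe sets that disagreed. One read 36.1 and 53.2 in WT against 13.9 and 17.6 in KO (-0.97 ± 0.35, unadjusted p = 0.0316, adjusted p = 0.846, limma), and the other gave 0.05 ± 0.33. Slc50a1, a sugar carrier of the SWEET family and the brightest of this class, read 241 and 256 in WT against 235 and 203 in KO (-0.17 ± 0.16).

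Slc2a2, the glucose transporter of liver and pancreatic islet cells, was dim, at 25.9 and 32.0 in WT against 10.2 and 7.87 in KO, without overlap (-0.90 ± 0.29, unadjusted p = 0.0206, adjusted p = 0.830, limma). Slc10a1, the bile acid uptake carrier of hepatocytes, read 48.8 and 70.9 in WT against 28.2 and 27.7 in KO in the least dim of its 3 probe sets (-0.80 ± 0.36, unadjusted p = 0.0645, adjusted p = 0.908, limma). Its other probe sets gave -0.07 ± 0.19 and 0.03 ± 0.14, both with overlap. Slc2a2 and this least dim probe set of Slc10a1 were highest on WT 2. The liver markers moved the same way, with 9 of the 10 measured lower in KO and 8 highest on WT 2. Albumin, among these 8, read 230.0 and 1016 in WT against 78.7 and 95.2 in KO. Other members known from liver did not all go this way. The dim Slc27a5 was higher in both KO pools, at 11.2 and 10.5 in WT against 12.7 and 14.3 in KO. Slc25a47 overlapped (-0.13 ± 0.27). The 10 measured exocrine pancreas markers were higher in KO on average and highest on KO 1, where Slc2a2 read 10.2. The part of the liver and pancreas markers in these carriers was not tested.

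The 3 genes left out by the selection rule can be set beside these values. Slc2a4, the insulin-responsive glucose transporter, read 2746 and 2893 in WT against 2394 and 2762 in KO (-0.13 ± 0.11), and Slc27a1 and Slc25a20 gave -0.24 ± 0.18 and -0.14 ± 0.14. The genotypes overlapped for all 3. Among the fatty acid carriers that are members, all 4 probe sets were dim, and Slc27a4 read 34.1 and 57.6 in WT against 23.5 and 9.34 in KO (-0.99 ± 0.41, unadjusted p = 0.0525, adjusted p = 0.908, limma).

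The carriers of lactate and related acids were 3 probe sets, all lower in KO on average and all overlapping. Slc16a8, a monocarboxylate carrier known from the retinal pigment epithelium, read 129 and 101 in WT against 27.2 and 106 in KO, so the single low array KO 1 made the difference of -0.87 ± 0.52; without KO 1 it was -0.10. Slc16a1, the broadly expressed lactate carrier, was dim, at 40.4 and 21.9 in WT against 44.6 and 9.26 in KO. Slc16a3, the lactate exporter of fast fibres, was not measured by any member.

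Carriers of neurotransmitters, creatine and taurine gave 15 probe sets of 11 genes, 7 higher and 8 lower in KO on average. Slc6a8, the creatine transporter, read 448 and 465 in WT against 456 and 411 in KO (-0.07 ± 0.12), and Slc6a6, the taurine transporter, read 577 and 431 in WT against 421 and 620.1 in KO in the brighter of its 2 bright probe sets, both with overlapping genotypes. The other bright probe set of Slc6a6 did not overlap and was lower in both KO pools, at 90.5 and 98.8 in WT against 72.4 and 59.8 in KO (-0.44 ± 0.28), so the pair disagreed. Slc6a2, the noradrenaline reuptake carrier of sympathetic nerve endings, was higher in both KO pools, at 74.9 and 66.2 in WT against 126 and 121 in KO (0.70 ± 0.25, unadjusted p = 0.0304, adjusted p = 0.846, limma). Its second, dim probe set gave 0.14 ± 0.31 with overlap. The 7 measured nerve and Schwann cell markers split into 4 higher and 3 lower, with a median of 0.02. They are myelin, Schwann cell and neurofilament genes, and a link to Slc6a2 was not tested. Slc6a13, a carrier of GABA, was lower in both KO pools, at 142 and 134 in WT against 103 and 94.1 in KO (-0.44 ± 0.22).

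**Figure D4:**
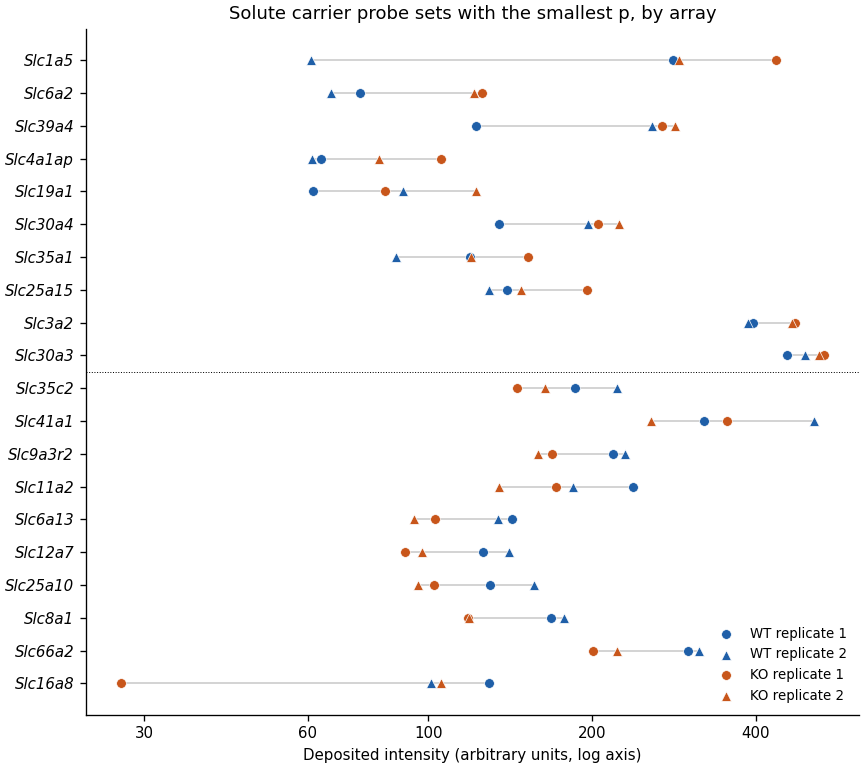
Intensity on each of the 4 arrays (log axis) of the 10 bright solute carrier probe sets higher and the 10 lower in KO with the smallest unadjusted p. Each row is a probe set and each point an array, coloured by genotype; Slc3a2, Slc6a2, Slc66a2 and Slc8a1 show tight pairs, while Slc1a5 and Slc16a8 each have 1 low array, WT 2 and KO 1.

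Among the cation exchangers, Slc8a1, the sodium-calcium exchanger that extrudes calcium from heart and other cells, was lower in KO in its bright probe set, at 168 and 178 in WT against 118 and 119 in KO (-0.50 ± 0.19, unadjusted p = 0.0418, adjusted p = 0.883, limma). Its other probe sets, both dim, went in opposite directions, 0.55 ± 0.41 with overlap and -0.63 ± 0.37 without. Slc9a8, a sodium-proton exchanger of the Golgi and endosomes, overlapped at 258 and 342 in WT against 265 and 249 in KO. Slc9a3r2, a PDZ scaffold that anchors sodium-proton exchangers and other membrane proteins, was lower in both KO pools, at 219 and 231 in WT against 169 and 159 in KO (-0.42 ± 0.17, unadjusted p = 0.0437, adjusted p = 0.900, limma). Its paralogue Slc9a3r1 overlapped (-0.16 ± 0.34), and Slc4a1ap, named as an adaptor of the anion exchanger, read 63.6 and 61.2 in WT against 105 and 81.1 in KO.

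Of 9 probe sets of cation-chloride and phosphate carriers 4 were higher and 5 lower on average, with 1 each way without overlap. Of 8 for anion and acid-base carriers 5 were higher and 3 lower, with 3 and 1 without overlap. Over all probe sets 17.0% were higher and 17.6% lower without overlap. Slc12a2, the sodium-potassium-chloride cotransporter, read 1242 and 1186 in WT against 1231 and 1038 in KO (-0.10 ± 0.12). Slc12a7, a potassium-chloride cotransporter, was lower in both KO pools, at 126 and 141 in WT against 90.6 and 97.4 in KO (-0.45 ± 0.23). The phosphate importer Slc20a1 and the chloride-bicarbonate exchangers Slc4a2 and Slc4a3 all overlapped, with fold changes of 0.16 ± 0.28, 0.00 ± 0.17 and -0.19 ± 0.23. Slc4a1, the band 3 anion exchanger of red blood cells, was dim and overlapped at 26.9 and 19.8 in WT against 17.2 and 37.5 in KO. All 4 measured red blood cell markers were higher in KO on average, with a median of 0.36. Of these, Alas2 (0.44 ± 0.51) and the dim Epb42 (0.27 ± 0.32) overlapped. Hba-a1 (0.46 ± 0.14) and Ank1 (0.10 ± 0.10) did not, and Ank1 was also counted among the partner subunits and anchors below.

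Metal ion carriers were measured by 24 probe sets of 17 genes, 14 of them bright, and 13 were higher and 11 lower on average. Without overlap 5 were higher and 6 lower, beside 17.0% and 17.6% of all probe sets. The zinc exporters of the Slc30 family were higher in 7 of 8 probe sets of 5 genes, with a median of 0.16. Of these 8 probe sets, 3 did not overlap, beside 34.6% of all probe sets. The lower one was a dim probe set of Slc30a3, with overlap (-0.19 ± 0.21). In its bright probe set Slc30a3, which loads zinc into vesicles, read 456 and 493 in WT against 534 and 522 in KO (0.15 ± 0.12). Slc30a4 read 135 and 197 in WT against 205 and 224 in KO in its bright probe set (0.37 ± 0.22). Of the zinc importers, Slc39a1 was lower in both KO pools in its bright probe set, at 387 and 334 in WT against 326 and 295 in KO. Its dim probe set gave 0.10 ± 0.33 with overlap. Slc39a4, the zinc importer of the intestine, was higher in its bright probe set, at 122 and 258 in WT against 269 and 284 in KO (0.59 ± 0.32), but gave 0.10 without WT 1, and its dim probe set did not differ beyond its error (-0.00 ± 0.36).

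The pair of probe sets of the iron carrier disagreed and that of the copper carrier did not. Slc11a2, the divalent metal and iron importer, read 238 and 185 in WT against 172 and 135 in KO in one probe set (-0.43 ± 0.22) and 341 and 311 in WT against 332 and 328 in KO in the other (0.02 ± 0.13), both bright. The copper importer Slc31a1 gave the same fold change, -0.26, in both of its bright probe sets, and neither overlapped. Slc48a1, a heme carrier, was also lower in both KO pools, at 152 and 163 in WT against 126 and 139.9 in KO. Slc41a1, a magnesium carrier, read 322 and 513 in WT against 355 and 256 in KO, and the genotypes overlapped because KO 1 lay above WT 1.

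Carriers of the Golgi and endoplasmic reticulum gave 13 probe sets of 12 genes, 6 higher and 7 lower on average. Without overlap were 2 each way, beside 17.0% higher and 17.6% lower of all probe sets. Slc37a4, which brings glucose-6-phosphate into the endoplasmic reticulum, read 1159.8 and 1230.4 in WT against 1232 and 1222 in KO (0.04 ± 0.10), and Slc35b1, a nucleotide carrier of the same membrane, gave -0.05 ± 0.11. The 95% interval of Slc37a4 ran from -0.20 to 0.28 and that of Slc35b1 from -0.32 to 0.22. Slc35a1, the CMP-sialic acid carrier of the Golgi, read 119.5 and 87.2 in WT against 152.6 and 119.9 in KO, so KO 2 lay just above WT 1 (0.36 ± 0.26). Slc35c2, a Golgi protein of the same family, was lower in both KO pools, at 186 and 223 in WT against 146 and 164 in KO (-0.37 ± 0.19). The dim Slc35a4 passed an unadjusted p of 0.05, at 15.2 and 17.3 in WT against 4.7 and 2.97 in KO.

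The 14 probe sets of vitamin, nucleoside and choline carriers split into 8 higher and 6 lower on average, with 2 each way without overlap. The 17 of organic ion, bile acid and urea carriers split into 8 and 9, with 2 higher and 4 lower without overlap. Over all probe sets 17.0% were higher and 17.6% lower without overlap. Slc29a1, the equilibrative nucleoside transporter, read 386 and 403 in WT against 367 and 336 in KO (-0.16 ± 0.13), and its dim probe set gave 0.06 ± 0.58. Slc19a1, the reduced folate carrier, was higher on average in both of its bright probe sets (0.38 ± 0.32 and 0.32 ± 0.31), the first overlapping and the second not. Slc22a5, the carnitine transporter that feeds fatty acid oxidation, read 73.8 and 79.6 in WT against 65.1 and 70.0 in KO. Slc66a2, a PQ-loop membrane protein, had the smallest p of all members, at 300.4 and 315 in WT against 201 and 222 in KO (-0.51 ± 0.15, unadjusted p = 0.0131, adjusted p = 0.803, limma).

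Where a gene had several probe sets, they often disagreed. Of 28 such genes with 61 probe sets, 13 had the same sign in all and 15 did not, and the median distance between the highest and the lowest fold change of a gene was 0.31. Among the 8 genes with at least 2 bright probe sets, 6 had the same sign in all. Slc8a1 and Slc2a3, described above, had distances of 1.19 and 1.02.

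**Figure D5:**
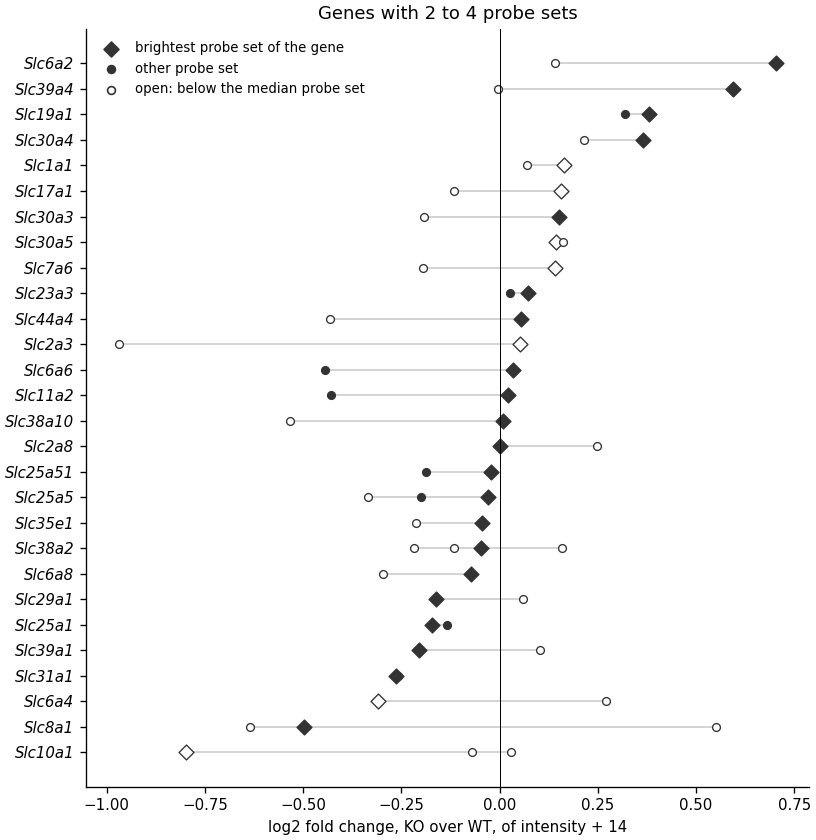
Log2 fold change (KO against WT) of every probe set of the 28 solute carrier genes with more than 1 probe set, one row per gene. Filled points are bright and open points dim probe sets, and a diamond marks the brightest probe set of each gene. The points of Slc8a1 and Slc2a3 lie 1.19 and 1.02 apart, while those of Slc31a1 and Slc19a1 nearly coincide.

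Genes of 7 other transport lists were counted in the same way, and none passed the adjusted threshold; 34.6% of all probe sets did not overlap. Of 24 measured ion pump genes 11 were higher and 13 lower, with 5 each without overlap, and of 20 ATP-binding cassette transporters 9 were higher and 11 lower, with 7 each without overlap. Abcg1, a sterol exporter with a dim probe set, read 132 and 77.2 in WT against 51.6 and 32.8 in KO (-1.06 ± 0.38), and Abcg2, an exporter of drugs and urate, read 79.5 and 56.4 in WT against 117 and 126 in KO (0.74 ± 0.28). The 8 measured carriers of the same superfamilies under other symbols split into 3 higher and 5 lower, with 2 lower without overlap. The 14 partner subunits and anchors, Slc9a3r1 and Slc9a3r2 among them, split into 5 and 9, with 2 and 3 without overlap. The 9 carbonic anhydrases split into 5 and 4, with 1 lower without overlap. The 7 aquaporins split into 4 and 3, with 2 higher without overlap. Of 9 channels and protein translocators of the outer and inner mitochondrial membranes 8 were lower and 1 higher, with a median of -0.14. Without overlap were 5 lower and 1 higher. The 5 lower ones included the dim Letm1 (-0.41 ± 0.36) and Vdac1 (-0.20 ± 0.24). Tomm40, the import pore, and Vdac2, a metabolite channel, both of the outer membrane, gave -0.92 ± 0.31 and -0.37 ± 0.12. Mtch2, an outer membrane relative of the Slc25 carriers, read 1535 and 1668 in WT against 1317 and 1311 in KO (-0.28 ± 0.10), and Atp6v0b, a subunit of the proton pump of lysosomes, read 1451 and 1309.7 in WT against 1038 and 1086 in KO (-0.37 ± 0.11). Stom, a membrane protein that binds Slc2a1, read 972 and 1135 in WT against 1362 and 1311 in KO (0.34 ± 0.12), opposite in direction to Slc9a3r2 of the same list. The second smallest p-values of their lists belonged to Mtch1, a relative of Mtch2 (-0.31 ± 0.21), and to the dim calcium pump gene Atp2b2 (-1.06 ± 0.52). In the aquaporin list the 2 smallest belonged to the dim Aqp8 (0.58 ± 0.31) and Aqp9 (-0.42 ± 0.38), and among the carbonic anhydrases to the dim Car8 (0.47 ± 0.43) and Car6 (0.24 ± 0.34).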

How the data were processed

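Total RNA of 4 pools was hybridised to Affymetrix U74Av2 arrays, and the authors deposited 1 table of intensity values per probe set on a linear scale; no label or header names the software or scaling behind it. Array medians lay between 67.6 and 71.1, and the precision is limited by having 4 arrays. Of 12488 probe sets, 66 controls were left out. Symbols came from the platform annotation, and all 181 were the same in GRCm38.p6. The deposited intensities were fitted as log2(intensity + 14) with R 4.3.3 and limma 3.58.1, using lmFit and a trended eBayes, and p-values of all 12422 probe sets were adjusted together by Benjamini-Hochberg; 14 is 20% of the table's median. On simulated data with planted changes, the fit was checked only for returning their mean size. Spreads were shuffled across probe sets there, so the check gives no error rate or power for these arrays. Pools held different mice per the labels. The SE and p-values rest on the spread between pools, which the eBayes step draws towards that of probe sets of similar intensity. They therefore do not measure the spread of 1 probe set alone. Same-numbered arrays did not deviate together (correlation 0.003). Named were the brightest probe set per class, the 10 bright ones in each direction with the smallest p, 25 genes known in muscle (19 measured), 6 at least 10 times the median probe set, genes with several probe sets, the 3 left out and 2 genes per transport list. Those with an unadjusted p under 0.05 in dim probe sets, and other single carriers, were added after their values were seen. Members and lists were chosen with earlier results of these data known.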

Additional observations from a re-analysis of the deposited data

How the results depend on the processing

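No solute carrier probe set passed the adjusted threshold under any of the 12 alternatives. Leaving out 1 array gave 4 to 9 probe sets at an unadjusted p under 0.05, 114 to 127 without overlap (fewer arrays make overlap rarer), 1 to 2 past the size rule, and medians from -0.054 to 0.0010. With only bright probe sets, 4 passed the unadjusted threshold, 32 did not overlap and the median was -0.046; with each array divided by its median, 0 passed the size rule. A replicate block, which pairs same-numbered arrays, gave 7 at the unadjusted threshold; the numbers do not pair the samples.

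Of 57 named probe sets, 33 kept their direction whichever array was left out and 24 turned, of 228 values 35. Slc25a4 turned to 0.015 with quantile normalization. The lowest and highest values without 1 array were -0.24 and 0.87 for Slc2a1, -0.058 and 0.16 for Slc2a3, -0.26 and 0.47 for Slc4a1, -0.45 and 0.075 for Slc4a3, -0.24 and 0.31 for Slc6a6, -0.013 and 0.45 for Slc7a5, -0.22 and 0.020 for Slc12a2, -0.93 and 0.41 for Slc16a1, -0.38 and 0.69 for Slc17a1, -0.090 and 0.40 for Slc20a1, -0.25 and 0.16 for Slc22a12, -0.25 and 0.39 for Slc23a3, -0.19 and 0.0088 for Slc25a11, -0.60 and 0.13 for Slc25a3, -0.054 and 0.015 for Slc25a4, -0.21 and 0.15 and, in another probe set, -0.41 and 0.012 for Slc25a5. They were -0.54 and 0.66 for the dim probe set of Slc29a1, -0.15 and 0.041 for Slc35b1 and -0.0040 and 0.080 for Slc37a4. The 4 probe sets of Slc38a2 gave -0.14 and 0.050, -0.47 and 0.039, -0.33 and 0.10, and -0.031 and 0.35. The cause was not tested.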

Other observations

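Promoter letters and fold changes were set side by side. Of the 122 genes with a RefSeq promoter window, 39 held the half-site TGACG in a window and 83 did not. The 53 probe sets of the first genes had a median log2 fold change of -0.07, with 3 higher and 12 lower in KO without overlap (28.3%). The 95 probe sets of the other genes had a median of -0.01, with 17 higher and 17 lower without overlap (35.8%). Over all probe sets 34.6% did not overlap, 17.0% higher and 17.6% lower. The split was made after the values were seen, no test was made, and the probe sets of one gene are not independent.

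Over the 181 solute carrier probe sets, WT 2 gave the highest of the 4 values for 60, against 38 for WT 1, 38 for KO 1 and 45 for KO 2. KO 2 gave the lowest for 52, against 43, 44 and 42 for WT 1, WT 2 and KO 1. The 3'/5' ratio of the actin control was 0.624 and 0.686 on the WT arrays and 0.729 and 0.866 on the KO arrays.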
